A study of Mus musculus with 10 samples.

Results

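The unfolded protein response and the machinery for protein folding in the endoplasmic reticulum (ER) were examined at the mRNA level in mouse liver through 38 genes chosen by name. They comprise 8 chaperones and their helpers, 2 lectin chaperones, 4 protein disulfide isomerases, 2 small secreted stress proteins, 11 genes of ER-associated degradation, 2 subunits of the Sec61 translocon, 4 stress sensors, 4 genes for transcription factors or the protease that activates them, and Wfs1. All 38 were among the 54532 genes of the deposited table and all 38 passed the filter on low reads, which left 13306 genes. No measured value entered the choice, although earlier results of these data were known when the genes were listed. Livers came from 10 C57BL/6J mice that started a high-fat diet (HFD) at 6 weeks of age, stayed on it for 7 weeks and were fasted for 5 h before sampling. Both groups carried murine ASK1 cDNA behind a lox-stop-lox cassette in the ROSA26 locus. By their labels and the study's methods, the 5 ASK1f/f mice were control littermates without Cre, and the 5 ASK1+hep mice also carried Alb-Cre, in which the albumin promoter drives Cre, chiefly in hepatocytes.

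Proteins that leave the cell or sit in its membranes fold in the ER, where chaperones bind them, isomerases form their disulfide bonds, and a degradation pathway returns failed ones to the cytosol. When unfolded proteins accumulate, the sensors IRE1, ATF6 and PERK are released from the chaperone BiP and raise the transcription of folding and degradation genes, while PERK also slows translation and favours ATF4. Hepatocytes secrete most plasma proteins and hold an extensive ER, and active IRE1 is known to recruit ASK1, the kinase overexpressed here, on its way to JNK. The study used the sequencing to look for liver transcripts that change with ASK1. The values below ask whether the folding and degradation genes were among them.

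Expression is given as FPKM, reads scaled by the authors to gene length and library size, and 13367742 to 16163378 reads fell on genes per library. All 10 hepatocyte markers were expressed in every liver, with Alb at 25083, 23313, 17543, 21438 and 17852 FPKM across ASK1f/f replicates 1 to 5 against 20472, 24218, 14692, 20119 and 23669 FPKM across ASK1+hep replicates 1 to 5. Map3k5, which encodes ASK1, was at 6.74, 6.88, 5.77, 4.71 and 19.8 FPKM across ASK1f/f replicates 1 to 5 against 16.4, 11.1, 7.68, 12.4 and 15.2 FPKM across ASK1+hep replicates 1 to 5. These values hold reads of both the transgene and the endogenous gene. The highest of the 10 Map3k5 values stood in the library labelled ASK1f/f replicate 5, against its label, and the log2 fold change between genotypes was 0.60 (95% interval -0.09 to 1.29, adjusted p = 0.812 from limma). Whether this library was exchanged or its mouse carried Cre was not tested. Genotypes follow the labels throughout, and because the same library stood apart in the folding genes, results are also given without it. The implied library size of ASK1+hep replicate 3 lay furthest below its read total, at a factor of 0.890 against 0.967 to 1.06 in the other livers.

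Many genes of this response carry an ER stress response element (ERSE) close to their start, to which ATF6 and XBP1 bind together with NF-Y. The element was searched as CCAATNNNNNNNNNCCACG, its compact form ERSE-II as ATTGGNCCACG and the UPR element as TGACGTGG, on both strands of the 250 bases before and 50 bases after each RefSeq start (GRCm38.p6), where 33 of the 38 genes had an entry. ERSE and ERSE-II both end in CCACG, and no gene of the 38 had both. The ERSE was found in Calr, Canx, Creld2, Derl3, Dnajc3, Hsp90b1, Hspa5, Pdia6 and Syvn1, which is 9 of 33 genes, against 39 of all 32851 promoter entries (0.119%). ERSE-II was found in Herpud1 and in Dnajb11, where it lies after the start, against 12 of all entries (0.0365%). The UPR element occurred in no member and in 222 entries (0.676%). A match is only a description of the letters in this window. Sequences are shown for 7 genes whose values in single livers are described below, 5′ to 3′ along the gene, with the element in capitals. Shorter flanks are shown where GENCODE M21 annotates an exon.
Hspa5, chr2:34772020-34772048, plus strand: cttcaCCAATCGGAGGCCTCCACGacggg
Hsp90b1, distal element, chr10:86705613-86705681, minus strand: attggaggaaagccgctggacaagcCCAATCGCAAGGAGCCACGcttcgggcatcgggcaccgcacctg
Hsp90b1, proximal element, chr10:86705528-86705556, minus strand: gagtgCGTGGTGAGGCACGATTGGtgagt
Dnajc3, chr14:118937802-118937870, plus strand: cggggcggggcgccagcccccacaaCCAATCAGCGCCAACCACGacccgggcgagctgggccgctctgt
Pdia6, chr12:17266466-17266534, plus strand: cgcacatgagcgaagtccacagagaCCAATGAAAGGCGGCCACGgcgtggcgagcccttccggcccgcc
Creld2, chr15:88819495-88819563, plus strand: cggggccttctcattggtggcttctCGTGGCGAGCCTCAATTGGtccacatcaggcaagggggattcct
Derl3, chr10:75893217-75893285, plus strand: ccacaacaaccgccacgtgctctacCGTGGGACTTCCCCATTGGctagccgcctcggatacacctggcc
Herpud1, chr8:94386352-94386412, plus strand: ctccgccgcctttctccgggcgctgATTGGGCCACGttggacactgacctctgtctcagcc
In Creld2, Derl3 and the proximal element of Hsp90b1 the ERSE runs on the strand opposite to the gene, so that the shown strand reads CGTGG first and ATTGG last. The last base of the element lay 47 bases before the start in Hspa5, 42 in Herpud1 and 138 in Derl3.

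The folding and unfolded protein response genes did not differ detectably between ASK1+hep and ASK1f/f livers. With limma's p-values adjusted by Benjamini-Hochberg over all genes, none of the 38 reached the threshold of 0.05, where 0 of 13306 genes (0.0%) did. The adjusted p of the 38 ran from 0.812 to 0.999. With DESeq2, which was not run here, the study reported the hormone gene Fgf21 as highly upregulated in these livers. In limma Fgf21 had the lowest p of all genes tested, and it too missed the adjusted threshold (adjusted p = 0.355). At an unadjusted p under 0.05 there were likewise 0 of the 38, against 3.05% of all genes higher and 2.72% lower in ASK1+hep livers, and limma-voom also gave 0. Groups overlapped in all 38, whereas 0.398% of all genes had every ASK1+hep liver above and 0.466% every ASK1+hep liver below all ASK1f/f livers. On the fitted scale 12 members were higher (31.6%) and 26 lower, where 48.0% of all genes were higher. The median log2 fold change of the members was -0.098 beside -0.0065 for all genes. The members' median moved to -0.012 without the library labelled ASK1f/f replicate 5, beside -0.0062 for all genes. It was 0.010 with quality weights, beside -0.013 for all genes. When libraries were scaled by all their reads it was -0.166, beside -0.052 for all genes. Under that last scaling 5 of the 38 were higher, and the share of all genes higher was not counted. Among all genes at an unadjusted p under 0.05, a different set, the share of higher genes was 31.4% in place of 52.9%. The 95% interval of the fold change lay within 2-fold in either direction for 36 of the 38 genes, the exceptions being Creld2 (-1.11 to 0.56 on the log2 scale) and Derl3 (-1.26 to 1.39). Leaving out a single liver moved the log2 fold change by over 1.5 times in 37 of the 38 genes, Atf6b being the exception. The liver that moved it most was ASK1f/f replicate 5 in 12 genes and ASK1+hep replicate 3 in 10. These counts were not made for all genes, and fold changes near 0 pass such a ratio easily. Of all genes, 9.18% were highest and 8.58% lowest in ASK1f/f replicate 5, and 26.3% and 26.1% in ASK1+hep replicate 3. In bulk tissue, fewer cells of a type and less RNA per cell cannot be told apart.

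**Figure D1:**
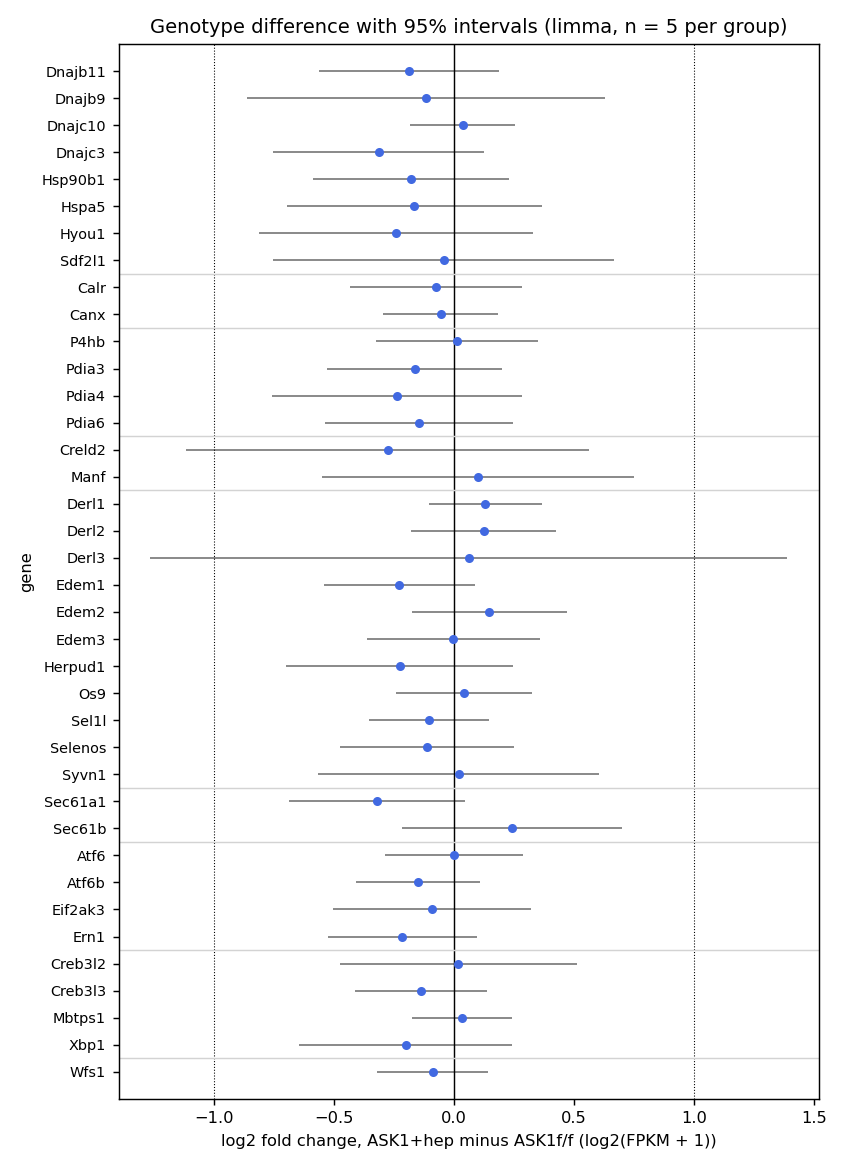
Log2 fold change of each of the 38 genes (x axis, ASK1+hep minus ASK1f/f on the log2(FPKM + 1) scale, points, with 95% intervals from limma as bars, n = 5 per group), ordered by role along the y axis. Every interval spans 0, and only those of Creld2 and Derl3 cross the dotted lines that mark a 2-fold difference.

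Levels spanned a wide range. P4hb, the beta subunit of prolyl 4-hydroxylase and itself a disulfide isomerase, had the highest mean over the 10 livers at 474 FPKM, followed by Herpud1 at 241, Calr at 209, Creb3l3 at 144 and Hspa5 at 137 FPKM. The lowest means belonged to Creb3l2 (3.16 FPKM), Wfs1 (2.58 FPKM) and the sensor gene Eif2ak3 (2.08 FPKM). Since FPKM is scaled by gene length, these levels can be set beside each other. At the lowest single values, 38 reads fell on Derl3, 75 on Eif2ak3 and 97 on Wfs1 in a liver, and every other member had at least 213 reads in each liver. Exons of other annotated genes overlap Hsp90b1, Dnajb9, Pdia3, Pdia4, Pdia6, Manf, Syvn1, Derl2, Sec61a1 and Eif2ak3, and whether counting used the strand is not given in the sources used here.

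Among the chaperones, 7 of 8 had a negative fold change and none passed the test, and with quality weights Hspa5, Dnajb9 and Sdf2l1 turned positive. Hspa5 encodes BiP, the Hsp70 chaperone that holds the sensors inactive. It was at 83.8, 199.9, 131, 116 and 208 FPKM across ASK1f/f replicates 1 to 5 against 108, 109, 111, 165 and 138 FPKM across ASK1+hep replicates 1 to 5. The highest pair and the lowest value were all ASK1f/f livers, and the ASK1+hep livers lay between them. Means were 148 ± 54.2 and 126 ± 25.3 FPKM (SD, n = 5 each), with a log2 fold change of -0.16 (95% interval -0.70 to 0.37, adjusted p = 0.882 from limma) and an exact two-sided permutation p of 0.579. Without the library labelled ASK1f/f replicate 5 the log2 fold change of Hspa5 was -0.02.

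Hsp90b1 encodes GRP94, the Hsp90 of the ER. Its values were 87.2, 114, 121, 126 and 201.4 FPKM in ASK1f/f and 124, 102, 104, 115 and 108 FPKM in ASK1+hep replicates 1 to 5. A single library, labelled ASK1f/f replicate 5, lay far above the other livers, which stayed between 87.2 and 126 FPKM. The log2 fold change was -0.18 (95% interval -0.59 to 0.23, adjusted p = 0.842), and -0.01 without that library. Sdf2l1, part of the BiP complex that handles aggregation-prone proteins, was at 24.2, 34.3, 17.8, 29.4 and 76.9 FPKM in ASK1f/f and 36.04, 34.8, 35.3, 33.6 and 19.5 FPKM in ASK1+hep replicates 1 to 5. The same ASK1f/f library had the highest Sdf2l1 value and ASK1+hep replicate 5 one of the lowest. The sign of its fold change depended on the library, being -0.04 with all livers and 0.27 without ASK1f/f replicate 5 (log2 scale).

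The J-domain proteins, which load clients onto BiP, peaked in different livers. Dnajb9 (ERdj4), which also returns BiP to IRE1, was at 10.5, 38.5, 20.8, 13.5 and 13.3 FPKM in ASK1f/f and at 13.04, 13.8, 9.653, 20.96 and 27.2 FPKM in ASK1+hep replicates 1 to 5. Here the highest liver was ASK1f/f replicate 2, and ASK1f/f replicate 5 was near the median. Its log2 fold change was -0.12 (95% interval -0.86 to 0.63, adjusted p = 0.949). Dnajc3 (p58IPK), a co-chaperone that also restrains PERK, had values of 45.6, 53.9, 44.1, 52.4 and 82.05 FPKM in ASK1f/f against 56.4, 44.3, 28.8, 43.4 and 49.4 FPKM in ASK1+hep mice. The extremes of Dnajc3 were ASK1f/f replicate 5 above and ASK1+hep replicate 3 below, and its log2 fold change of -0.31 (95% interval -0.75 to 0.13, adjusted p = 0.812) became -0.17 without the former. Dnajb11 ran from 21.7 to 44.8 FPKM and the ER-resident nucleotide exchange factor Hyou1 from 12.2 to 37.4 FPKM, both highest in ASK1f/f replicate 5. Dnajc10, a reductase with a J domain, was among the steadiest members, at 4.45 to 6.25 FPKM.

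**Figure D2:**
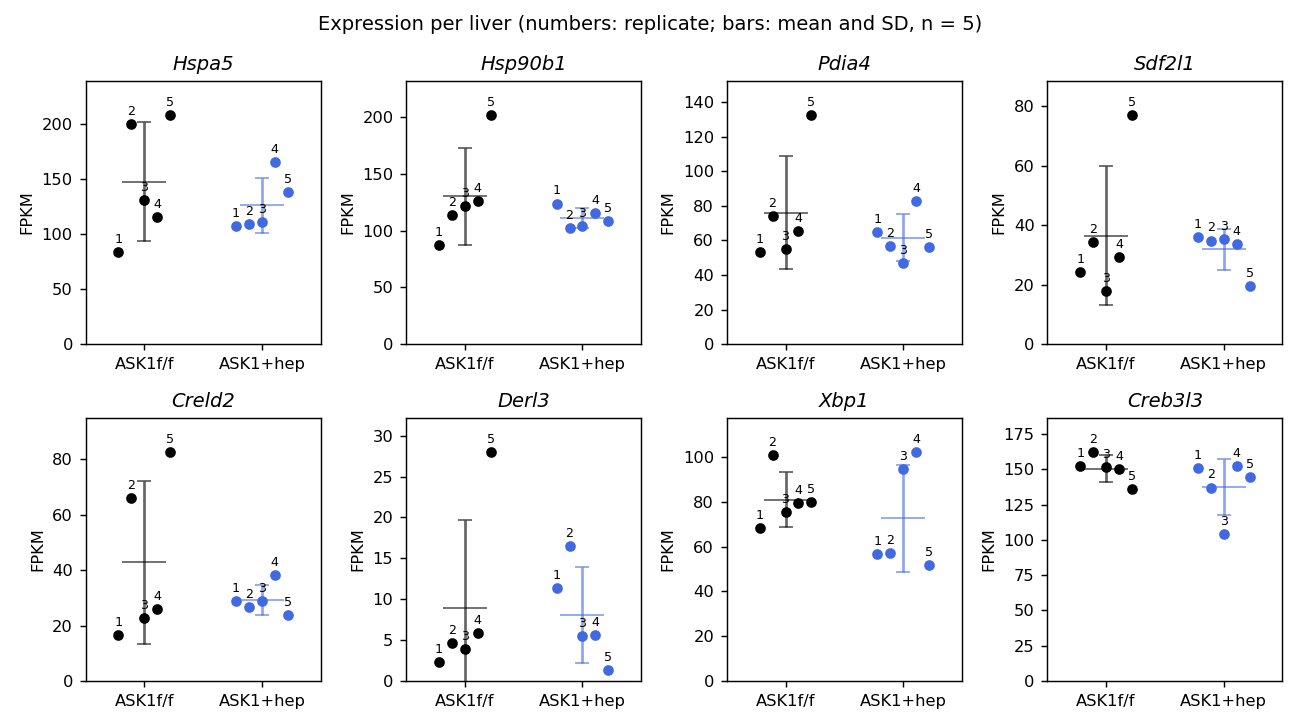
FPKM of 8 genes in each liver (y axes from 0, ASK1f/f in black and ASK1+hep in blue, points numbered by replicate, horizontal marks and bars giving mean and SD, n = 5, the lower bar of Derl3 in ASK1f/f being clipped at 0). ASK1f/f replicate 5 stands above the other livers in Hsp90b1, Pdia4, Sdf2l1 and Derl3, shares the top with replicate 2 in Hspa5 and Creld2, and is not the highest in Xbp1 or Creb3l3.

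The lectin chaperones calreticulin and calnexin hold glycoproteins until they fold. Calr was at 180.1, 224, 182, 191 and 299 FPKM in ASK1f/f and at 196, 241, 202, 206 and 164 FPKM in ASK1+hep replicates 1 to 5, with ASK1f/f replicate 5 highest and ASK1+hep replicate 5 lowest. The log2 fold change of Calr was -0.07 (95% interval -0.43 to 0.28, adjusted p = 0.918), and 0.05 without ASK1f/f replicate 5. Canx varied less, from 52.9 to 71.8 FPKM.

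Of the disulfide isomerases, which make and reshuffle disulfide bonds, Pdia4 was at 53.1, 74.01, 54.9, 65.6 and 132 FPKM in ASK1f/f and at 65.1, 56.8, 47.02, 83.04 and 56.5 FPKM in ASK1+hep replicates 1 to 5. Once more the library labelled ASK1f/f replicate 5 was highest, with ASK1+hep replicate 4 next. The log2 fold change was -0.24 (95% interval -0.76 to 0.28, adjusted p = 0.841), and -0.02 without that library. Pdia3 (ERp57), the partner of the lectin chaperones, ran from 104 to 202 FPKM, and Pdia6 from 63.7 to 133 FPKM, both also highest in ASK1f/f replicate 5. P4hb had its highest value in ASK1+hep replicate 3, a range of 379.8 to 597 FPKM and a log2 fold change of 0.01, which changed sign to -0.068 when libraries were scaled by all reads.

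Creld2 and Manf encode small proteins of the ER that are secreted under stress. Creld2 was at 16.5, 65.97, 22.8, 25.8 and 82.6 FPKM in ASK1f/f and at 28.7, 26.7, 29.01, 38.2 and 23.9 FPKM in ASK1+hep replicates 1 to 5. The ASK1f/f livers split widely, with replicates 2 and 5 above every ASK1+hep liver and replicates 1 and 3 below every one, and the 5.00-fold range was wider than that of Hspa5 (2.48-fold). Its log2 fold change was -0.28 (adjusted p = 0.873), and 0.03 without ASK1f/f replicate 5. Manf was at 11.6, 30.00, 18.02, 15.5 and 29.8 FPKM in ASK1f/f and at 16.2, 16.7, 32.2, 31.9 and 15.1 FPKM in ASK1+hep replicates 1 to 5. Each genotype had a pair of livers between 29.8 and 32.2 FPKM and the other livers at or below 18.0 FPKM, so that the log2 fold change of 0.10 lay inside a broad interval (-0.55 to 0.75). Exons of Dcaf1 and Rbm15b overlap Manf and had means of 2.95 and 2.78 FPKM.

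The genes of ER-associated degradation were divided, with 6 of 11 higher, 5 lower and a median log2 fold change of 0.021, and Syvn1, Derl3 and Os9 turned negative when scaled by all reads. Herpud1, a membrane protein that assembles the degradation complex, was at 235, 320.1, 325, 197 and 217 FPKM in ASK1f/f and at 253, 218, 197, 144 and 306 FPKM in ASK1+hep replicates 1 to 5. Its order of livers differed from that of the chaperones, with ASK1f/f replicates 2 and 3 and ASK1+hep replicate 5 highest and ASK1+hep replicate 4 lowest. The log2 fold change of Herpud1 was -0.23 (95% interval -0.70 to 0.24, adjusted p = 0.834). It was -0.079 without ASK1+hep replicate 4 and -0.35 without ASK1+hep replicate 5.

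Derl3 belongs to the derlins, channel proteins through which clients leave the ER. It was at 2.31, 4.59, 3.92, 5.80 and 28.00 FPKM in ASK1f/f and at 11.4, 16.5, 5.50, 5.64 and 1.38 FPKM in ASK1+hep replicates 1 to 5. Its 20.2-fold range was the widest of the 38 genes, from ASK1+hep replicate 5 to ASK1f/f replicate 5, and no genotype difference could be read from it (log2 fold change 0.06, adjusted p = 0.984, and 0.57 without ASK1f/f replicate 5). The other derlins were among the 4 higher members with the lowest p. Derl1 was at 45.3, 50.5, 47.2, 45.8 and 52.5 FPKM in ASK1f/f against 51.9, 49.2, 62.2, 56.8 and 45.4 FPKM in ASK1+hep mice (log2 fold change 0.13, unadjusted p = 0.253 from limma). Derl2 was at 13.4, 12.4, 13.1, 13.4 and 13.7 FPKM in ASK1f/f against 13.2, 13.8, 21.1, 14.3 and 11.5 FPKM in ASK1+hep mice (log2 fold change 0.12, unadjusted p = 0.388 from limma). In both, ASK1+hep replicate 3 was highest, and without it Derl1 became 0.071 and Derl2 -0.0041 on the log2 scale.

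The EDEM proteins trim mannose from misfolded glycoproteins. Edem2 was at 15.6, 16.8, 13.8, 12.9 and 17.9 FPKM in ASK1f/f and 15.3, 17.7, 21.96, 18.97 and 12.6 FPKM in ASK1+hep replicates 1 to 5 (log2 fold change 0.15, unadjusted p = 0.341 from limma). Edem1, the best known target of XBP1 in this family, was at 21.5, 30.8, 23.2, 22.5 and 30.01 FPKM in ASK1f/f and 24.5, 19.96, 16.5, 22.8 and 24.7 FPKM in ASK1+hep replicates 1 to 5 (log2 fold change -0.23, unadjusted p = 0.143 from limma). Thus Edem1 was lowest and Edem2 highest in the same liver, ASK1+hep replicate 3, without which the log2 fold changes were -0.14 and 0.059. Without ASK1+hep replicate 5 that of Edem2 was 0.25. Edem3 had a log2 fold change near 0 and ran from 3.18 to 7.19 FPKM. Sel1l, the scaffold of the HRD1 ubiquitin ligase, ran from 10.7 to 16.1 FPKM, and Syvn1, the ligase itself, from 13.9 to 38.4 FPKM with its highest value in ASK1f/f replicate 2. Mrpl49, which overlaps Syvn1 on the other strand, had a mean of 16.7 FPKM. Os9, a lectin that delivers clients to the ligase, ran from 83.6 to 137 FPKM, and Selenos, a selenoprotein that ties the complex to the cytosolic ATPase, from 22.2 to 41.3 FPKM.

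The translocon subunits had fold changes of opposite sign, neither past the test. Sec61a1, the channel itself, was at 17.1, 20.7, 16.1, 15.9 and 23.4 FPKM in ASK1f/f and at 17.3, 11.97, 10.4, 17.5 and 17.3 FPKM in ASK1+hep replicates 1 to 5. It had the lowest p of the 38 genes, with a log2 fold change of -0.32 (95% interval -0.69 to 0.05, unadjusted p = 0.0824, adjusted p = 0.812 from limma) and an exact two-sided permutation p of 0.159. Sec61b, the small tail-anchored subunit, was at 40.1, 61.7, 51.4, 48.1 and 51.7 FPKM in ASK1f/f and at 41.4, 67.1, 92.2, 66.1 and 43.8 FPKM in ASK1+hep replicates 1 to 5 (log2 fold change 0.24, 95% interval -0.21 to 0.70, unadjusted p = 0.27 from limma). The low Sec61a1 and the high Sec61b value both stood in ASK1+hep replicate 3. Without it the log2 fold changes were -0.21 for Sec61a1 and 0.086 for Sec61b, and without ASK1+hep replicate 1 that of Sec61b was 0.37.

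Of the 4 sensor genes none passed the test. Ern1, Atf6b and Eif2ak3 had a negative fold change, which turned positive for Eif2ak3 with quality weights, and that of Atf6 lay near 0. Ern1, which encodes IRE1, was at 7.72, 6.45, 7.84, 7.17 and 6.83 FPKM in ASK1f/f and at 7.00, 6.57, 4.33, 5.01 and 7.96 FPKM in ASK1+hep replicates 1 to 5. ASK1+hep replicates 3 and 4 were the lowest and ASK1+hep replicate 5 the highest, and the log2 fold change was -0.22 (95% interval -0.53 to 0.10, adjusted p = 0.812). Without ASK1+hep replicate 3 it was -0.11. Without ASK1+hep replicate 5, Ern1 was the only member at an unadjusted p under 0.05 (limma, adjusted p = 0.385). Atf6, the sensor that is cut to release a transcription factor, was at 7.37, 7.69, 6.47, 6.95 and 8.36 FPKM in ASK1f/f and at 8.47, 6.41, 5.61, 7.44 and 9.32 FPKM in ASK1+hep replicates 1 to 5. The mean levels of Atf6 were 7.37 ± 0.719 and 7.45 ± 1.502 FPKM (SD, n = 5 each), with a log2 fold change of -0.0005, 95% interval -0.29 to 0.29, that ran from -0.077 to 0.084 when single livers were left out. Its relative Atf6b ran from 6.92 to 10.4 FPKM (log2 fold change -0.15). Eif2ak3, which encodes PERK, was at 1.82, 3.37, 1.74, 1.86 and 2.03 FPKM in ASK1f/f and at 2.16, 1.77, 0.903, 2.42 and 2.73 FPKM in ASK1+hep replicates 1 to 5. The highest Eif2ak3 value was in ASK1f/f replicate 2 and the lowest in ASK1+hep replicate 3 (log2 fold change -0.09, adjusted p = 0.914).

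Xbp1 mRNA is spliced by IRE1 into the form that encodes the active factor, and values per gene do not separate the spliced from the unspliced form. Xbp1 was at 68.3, 101, 75.4, 79.5 and 80.1 FPKM in ASK1f/f and at 56.7, 57.1, 94.9, 102 and 51.99 FPKM in ASK1+hep replicates 1 to 5. In the ASK1+hep group, replicates 3 and 4 were at or above 94.9 FPKM and replicates 1, 2 and 5 at or below 57.1 FPKM, and 4 of the 5 ASK1f/f livers lay in between. Its log2 fold change was -0.20 (95% interval -0.64 to 0.24, adjusted p = 0.841). Without ASK1+hep replicate 4 it was -0.34 and without ASK1+hep replicate 5 -0.097. Creb3l3 (CREBH), an ER-anchored factor enriched in liver that acts on lipid genes including Fgf21, was at 152, 162, 152, 150.4 and 136 FPKM in ASK1f/f and at 151, 137, 104, 152 and 145 FPKM in ASK1+hep replicates 1 to 5. Apart from ASK1+hep replicate 3, the livers lay within 136 to 162 FPKM, and the log2 fold change was -0.14 (95% interval -0.41 to 0.14, adjusted p = 0.823). Without that liver it was -0.040. Creb3l2, a related factor, ran from 1.92 to 6.77 FPKM with ASK1f/f replicate 2 far above the others. Mbtps1, the site-1 protease that starts the cleavage of ATF6 and CREBH, had the narrowest spread of the 38 genes (4.84 to 6.23 FPKM). Wfs1, a calcium-handling ER membrane protein, ran from 1.98 to 3.20 FPKM.

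Single livers differed widely, also within a genotype. The SD of log2(FPKM + 1) over the 10 livers had a median of 0.282 for the 38 genes and 0.342 for the 16 chaperones, lectins, isomerases and secreted proteins, beside 0.196 for all genes tested. The library labelled ASK1f/f replicate 5 held the highest value in 16 of the 38 genes (42.1%) and in 12 of the 16 folding genes, while it was highest in 9.18% of all genes. Its folding genes deviated from the mean over livers by a median of 0.66 on the log2 scale. ASK1f/f replicate 2 was highest in 7 genes (18.4%, beside 8.01% of all genes), namely Dnajb9, Syvn1, Edem1, Eif2ak3, Creb3l2, Creb3l3 and Wfs1. ASK1+hep replicate 3 was also highest in 7 genes (18.4% beside 26.3%) and ASK1+hep replicate 5 in 5 (13.2% beside 17.2%). The same livers were most often lowest, ASK1+hep replicate 3 in 13 genes (34.2%, where it was lowest in 26.1% of all genes), and ASK1+hep replicate 5 in 9 (23.7% beside 15.9%). These counts were made after the values had been seen and are given without a test.

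**Figure D3:**
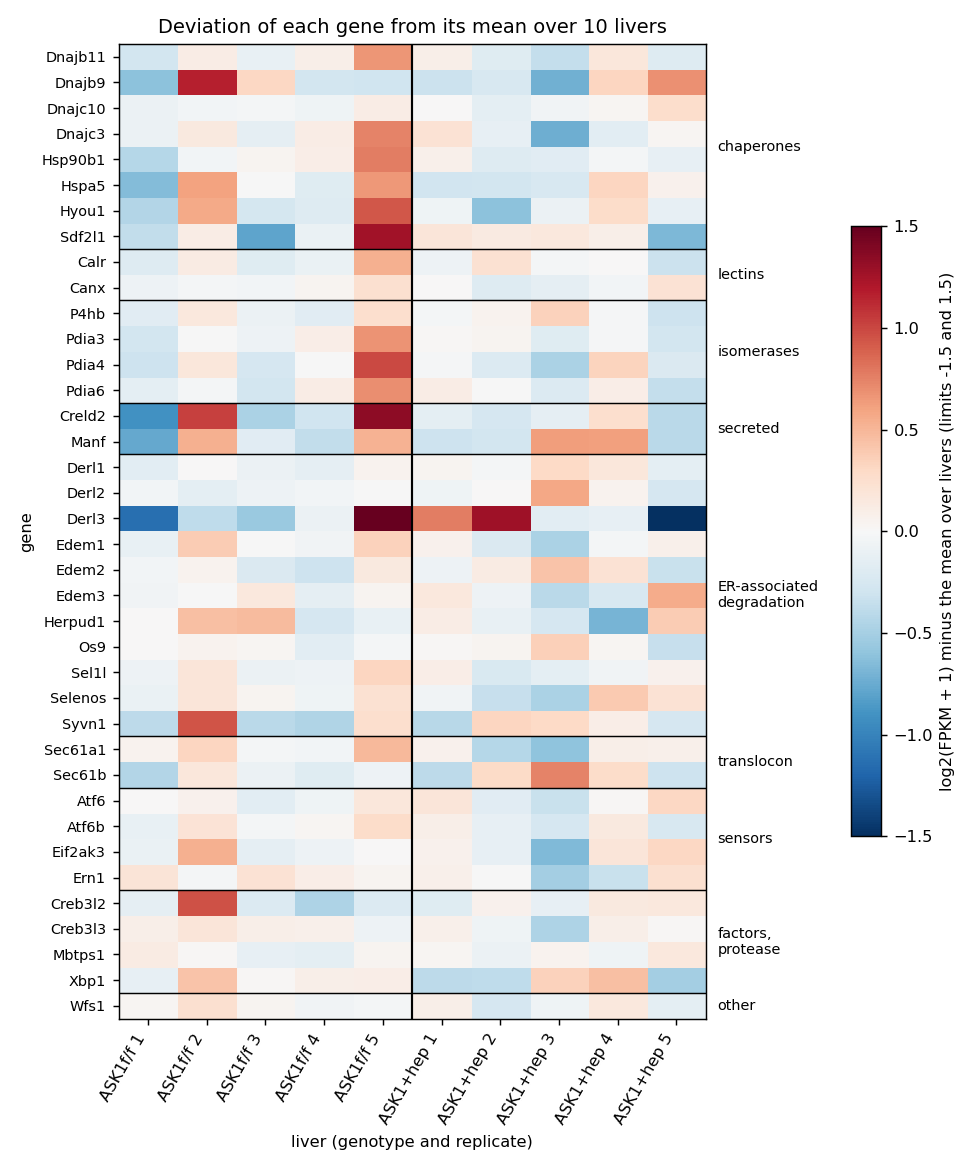
Deviation of each of the 38 genes (rows, grouped by role) from its own mean over the 10 livers (columns, ASK1f/f left and ASK1+hep right of the line), in log2(FPKM + 1), with the colour scale ending at -1.5 and 1.5. The column of ASK1f/f replicate 5 is red throughout most chaperones, isomerases and secreted proteins, and that of ASK1f/f replicate 2 is red in Dnajb9, Creld2, Syvn1 and Creb3l2.

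Read by promoter, ASK1f/f replicate 5 was highest in 9 of the 11 genes with an ERSE or ERSE-II, in 5 of the 22 with neither and in 2 of the 5 without an entry. Herpud1 and Syvn1 were the exceptions among the 11. This split was read after the values of that library had been seen, and it goes with role, since 8 of the 11 genes with an element and 6 of the 22 with neither were among the 16 folding genes. Pdia4 and Sdf2l1, also highest in that library, had neither element in the window searched.

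Markers of other cell types moved with this library in part. The summed FPKM of the 10 macrophage markers was 146 to 234 in ASK1f/f and 95.3 to 227 in ASK1+hep livers, with the highest sum in ASK1f/f replicate 5, where 6 of the 10 markers peaked. ASK1+hep replicate 1 had nearly as high a sum, 227, and its folding genes deviated by a median of -0.0080 on the log2 scale. The hepatocyte sum was lowest in ASK1f/f replicate 5, at 33785 FPKM, against 37664 to 49772 in the other livers. Of the 10 hepatocyte markers, 2 peaked in that library. Markers of B cells and plasma cells summed to 14.1 to 24.2 in ASK1f/f and 14.6 to 33.0 in ASK1+hep livers. Their sum was not highest in this library, where 1 of the 10 markers peaked. Of these 10, 9 were detected, and Tnfrsf17 was at 0 in every liver. Stellate cell markers summed to 27.6 to 37.3 in ASK1f/f and 19.5 to 34.8 in ASK1+hep livers. Endothelial markers summed to 43.6 to 56.8 in ASK1f/f and 37.4 to 69.5 in ASK1+hep livers. Neither sum was highest in this library, where 0 of the 10 stellate cell and 3 of the 8 endothelial markers peaked. Cholangiocyte markers summed to 13.5 to 32.7 in ASK1f/f and 15.6 to 28.3 in ASK1+hep livers, with the highest sum in ASK1f/f replicate 5, where 2 of the 6 markers peaked. Of all marker genes tested, 1 was higher in ASK1+hep at an unadjusted p under 0.05, beside 3.05% of all genes. It was the hepatocyte gene Ttr (log2 fold change 0.52, named after its value was seen). All 10 macrophage markers were lower with 0 past that limit, where 48.0% of all genes were higher. The part of cell composition in the pattern of single livers was not tested.

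Across the 10 livers, Hspa5 was compared with 4 genes on the log2(FPKM + 1) scale, with p-values adjusted over these 4 relations. With Hsp90b1, Pearson's r was 0.675 (permutation p = 0.0246, adjusted p = 0.0983) and Spearman's rho 0.491 (permutation p = 0.154, adjusted p = 0.309), which did not hold after adjustment. Without ASK1f/f replicates 2 and 5, the livers farthest from the median of Hspa5, r was 0.562 (permutation p = 0.147). Without ASK1f/f replicate 5 alone, r was 0.473 (permutation p = 0.201, adjusted p = 0.402). Without ASK1f/f replicate 2 alone, r was 0.811 (permutation p = 0.0107, adjusted p = 0.0426), but rho was 0.55 (permutation p = 0.135). With Xbp1, r was 0.481 (permutation p = 0.160, adjusted p = 0.319) and rho 0.539 (permutation p = 0.114, adjusted p = 0.309), and r fell to 0.318 without the same pair of livers. With Creb3l3, r was 0.191 (permutation p = 0.607, adjusted p = 0.810) and rho 0.0909 (permutation p = 0.812, adjusted p = 0.947), with r at 0.138 without that pair. With Atf4, r was -0.0015 (permutation p = 0.996, adjusted p = 0.996) and rho 0.0303 (permutation p = 0.947, adjusted p = 0.947), and r was 0.339 without that pair. On deviations from the genotype means the 4 values of r were 0.657, 0.449, 0.119 and 0.118.

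Genes of the same pathways outside the 38 were read from lists drawn up with earlier results known. None of them passed the adjusted threshold. Further folding enzymes had 0 genes higher and 1 lower of 30 at an unadjusted p under 0.05, beside the background shares of 3.05% and 2.72%, and a median log2 fold change of -0.0011. Qsox1, a secreted sulfhydryl oxidase, was at 43.9, 86.3, 49.2, 41.7 and 63.2 FPKM in ASK1f/f and 42.9, 37.2, 36.6, 46.9 and 34.7 FPKM in ASK1+hep replicates 1 to 5 (log2 fold change -0.46, adjusted p = 0.812). Fkbp11, a prolyl isomerase of secretory cells, had a log2 fold change of 0.34 (unadjusted p = 0.0612 from limma). Translocation, signal cleavage and N-glycosylation had 0 higher and 2 lower of 28 and a median of -0.019. Both were subunits of the oligosaccharyltransferase, Ddost (log2 fold change -0.28, adjusted p = 0.812) and Stt3a (-0.35, adjusted p = 0.812). Further ER-associated degradation had 2 higher and 0 lower of 27 tested and a median of -0.028. These were Ufd1, a cofactor of the p97 ATPase (log2 fold change 0.29, adjusted p = 0.812), and the ubiquitin-conjugating enzyme Ube2j2 (0.37, adjusted p = 0.812). Both were highest in ASK1+hep replicate 3.

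In the PERK arm and its outputs, 11 of 15 genes were higher and 4 lower in ASK1+hep livers on the fitted scale, with a median log2 fold change of 0.29. At an unadjusted p under 0.05 there were 4 higher and 0 lower genes, and this list includes Fgf21, the study's own target in these livers, and was drawn up with its values known, so the count is no independent evidence. Fgf21, the hormone that is also an ATF4 target, was at 4.28, 4.74, 2.46, 2.97 and 3.21 FPKM in ASK1f/f and at 12.3, 25.05, 30.1, 23.4 and 7.40 FPKM in ASK1+hep replicates 1 to 5. It was the only one of the 15 whose groups did not overlap (log2 fold change 2.06, standard error 0.32, adjusted p = 0.355). Its unadjusted p of 3.8e-05 from limma was the lowest of all 13306 genes tested. Asns, asparagine synthetase, was at 1.86, 0.488, 0.391, 1.63 and 5.77 FPKM in ASK1f/f and at 6.56, 10.4, 2.65, 8.57 and 6.93 FPKM in ASK1+hep replicates 1 to 5 (log2 fold change 1.56, adjusted p = 0.726). ASK1f/f replicate 5 lay within the range of the ASK1+hep livers in Asns, but not in Fgf21. Named after their values were seen, the other two were the pseudokinase gene Trib3 (log2 fold change 0.70, adjusted p = 0.812) and Ppp1r15a (0.54, adjusted p = 0.812), whose product GADD34 reverses the block of translation. Atf4 itself was at 30.8, 40.3, 33.3, 32.02 and 26.2 FPKM in ASK1f/f and at 27.9, 44.1, 66.9, 58.8 and 31.03 FPKM in ASK1+hep replicates 1 to 5 (log2 fold change 0.41, 95% interval -0.09 to 0.92, adjusted p = 0.812). ASK1+hep replicates 3 and 4 were highest in Atf4, and ASK1f/f replicate 5, the liver with the highest Hspa5, was the lowest.

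Cytosolic chaperones, many of which answer to HSF1 rather than to the ER sensors, had a median log2 fold change of -0.015. At an unadjusted p under 0.05, 1 was higher and 0 lower of 19 tested, beside 3.05% and 2.72% of all genes. Hspb1, a small heat shock protein, was at 26.4, 19.5, 23.8, 34.6 and 83.3 FPKM in ASK1f/f and at 68.6, 99.5, 139.7, 54.8 and 25.98 FPKM in ASK1+hep replicates 1 to 5 (log2 fold change 1.03, adjusted p = 0.812), with overlapping groups. Hspa8, the constitutive Hsp70, had a log2 fold change of 0.31 (limma, adjusted p = 0.812).

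**Figure D4:**
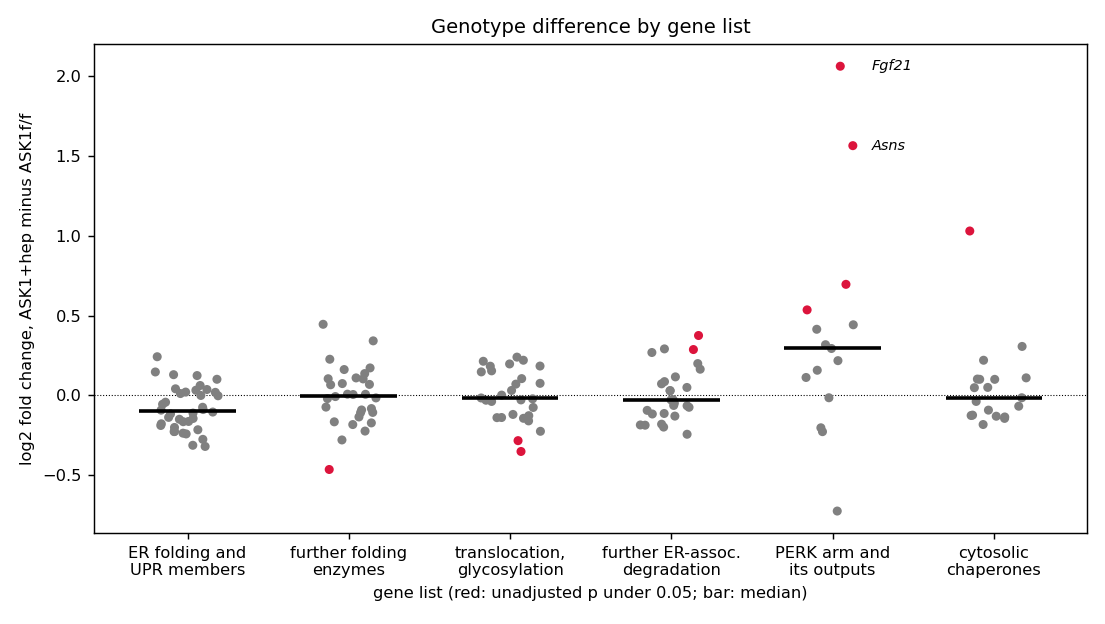
Log2 fold changes (y axis, ASK1+hep minus ASK1f/f, log2(FPKM + 1)) of the 38 genes and of 5 related lists (x axis), each point a gene, red at an unadjusted p under 0.05, with bars at the median. No point of the 38 genes is red. The list named PERK arm and its outputs has the highest median, 0.29, and holds Fgf21 and Asns at its top.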

How the data were processed

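Poly-A RNA of 10 livers was sequenced by the authors' provider. Per the study's methods and the submitters' processing notes, reads were cleaned (fastp is named), mapped with Hisat2 and counted per gene with FeatureCounts. The authors deposited FPKM for 54532 genes. Tool versions, genome build and strand setting are not given in the sources used here. Coordinates of all 38 genes matched GENCODE M21 (GRCm38). In every library 100% of the values multiplied by gene length were whole multiples of a step (tolerance 0.01 reads), which gave the reads used for depth and filtering (13367742 to 16163378 per library, so that each member's values rest on 38 to 24598 reads). The sources name DESeq2, but because FPKM are not counts, genotypes were compared on the log2(FPKM + 1) scale by limma (version 3.58.1, R 4.3.3, trend option on). P-values were adjusted by Benjamini-Hochberg over 13306 genes. These had 10 or more reads in 5 or more livers, after scaling totals to the median library, and 15 or more in all. Fold changes on this scale understate those of low genes. The comparison was also run on simulated data, whose changed genes had larger fold changes than any of the 38 genes. Its power to detect differences of the members' size was not tested.

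Single genes were compared by exact two-sided permutation over all splits into 5 and 5 (smallest possible p 0.00794), and relations by 100000 permutations (two-sided). Groups came from the labels, and replicate numbers follow the order of the samples within each genotype. P-values measure the spread between mice. Members and lists were chosen with earlier results of these data known. Values in every liver are given for 15 members named in the plan, the 4 higher and 4 lower members with the lowest p, and the 2 genes with the lowest p of each related list (not all in every liver). Alternatives were log2(FPKM + 0.1), no filter, 10 reads in every liver, limma-voom, limma-voom with quality weights, scaling by all reads, the replicate block and leaving out each liver. Leaving out 2 livers together was added after seeing the data. Protein sequences were not used here. Promoters are from RefSeq (GRCm38.p6), with 35 entries for 33 members.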

Additional observations from a re-analysis of the deposited data

Results flagged for a closer look

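On the FPKM scale, in 7 of 76 groups of 5 livers examined, a liver lay further from the rest of its genotype than Dixon's limit for 5 values (a gap of 0.71 of the whole range), where chance passes about 1 group in 20 if values are normal and groups independent, which genes of the same livers are not. On the log2(FPKM + 1) scale 4 groups passed, 3 of them the same and none in ASK1f/f replicate 5. In ASK1f/f replicate 5 these were Derl3 (28.0 FPKM beside 2.31 to 5.80 in the other ASK1f/f livers, ratio 0.864, and 0.669 on the log2 scale), Dnajc3 (82.0 FPKM beside 44.1 to 53.9, ratio 0.744, and 0.680 on the log2 scale), Pdia4 (132 FPKM beside 53.1 to 74.0, ratio 0.736, and 0.637 on the log2 scale) and Sdf2l1 (76.9 FPKM beside 17.8 to 34.3, ratio 0.721, and 0.557 on the log2 scale). In ASK1f/f replicate 2 they were Creb3l2 (6.77 FPKM beside 1.92 to 2.66, ratio 0.847) and Eif2ak3 (3.37 FPKM beside 1.74 to 2.03, ratio 0.825), with ratios of 0.769 and 0.788 on the log2 scale. Sdf2l1 also stood apart in ASK1+hep replicate 5, as the lowest value (19.5 FPKM beside 33.6 to 36.0, ratio 0.850, and 0.883 on the log2 scale). The fourth group on that scale was Creb3l3, lowest in ASK1+hep replicate 3 (ratio 0.723). The 4 folding and degradation genes of ASK1f/f replicate 5 share a library whose Map3k5 value, 19.8 FPKM, went against its label, and whether the 2 are related was not tested.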

How the results depend on the processing

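No member passed the adjusted threshold under any alternative tried, and 19 of the 38 kept the sign of their fold change under all planned ones. Genes called among the 13306 numbered 0 in the comparison reported, 1 with quality weights, 0 to 1 when each liver was left out in turn, and 3 without ASK1f/f replicate 5 and ASK1+hep replicate 3 together. Members at an unadjusted p under 0.05 numbered 0 throughout, except 1 without ASK1+hep replicate 5 (range 0 to 1 over the livers left out). The number of all genes at that limit was 768, 1222 without a filter, 972 with quality weights, and 557 to 1724 when a liver was left out, the highest value being that without ASK1+hep replicate 5 and the next, 1178, that without ASK1+hep replicate 1. The median log2 fold change of the members ran from -0.14 to -0.012 over the livers left out, was 0.015 without both livers named above, and turned sign with quality weights (0.010). The cause of the sign changes below was not tested beyond the change each setting makes. With quality weights 9 members changed sign on the log2 scale, Hspa5 (0.0014), Dnajb9 (0.034), Sdf2l1 (0.16), Calr (0.028), Creld2 (0.022), Edem3 (0.0093), Selenos (0.011), Atf6 (0.063) and Eif2ak3 (0.057). When scaled by all reads 7 did, Dnajc10 (-0.029), P4hb (-0.068), Syvn1 (-0.055), Derl3 (-0.0058), Os9 (-0.038), Creb3l2 (-0.037) and Mbtps1 (-0.035). Over the livers left out, 17 changed sign at least once, with ranges of Dnajb9 (-0.30 to 0.16), Dnajc10 (-0.024 to 0.079), Sdf2l1 (-0.25 to 0.27), Calr (-0.14 to 0.050), P4hb (-0.073 to 0.090), Pdia6 (-0.23 to 0.010), Creld2 (-0.54 to 0.026), Manf (-0.078 to 0.25), Syvn1 (-0.091 to 0.26), Edem3 (-0.14 to 0.10), Derl2 (-0.0041 to 0.20), Derl3 (-0.25 to 0.57), Os9 (-0.044 to 0.13), Atf6 (-0.077 to 0.084), Eif2ak3 (-0.18 to 0.062), Creb3l2 (-0.094 to 0.26) and Mbtps1 (-0.0031 to 0.067). Over the livers left out, r of Hspa5 with Hsp90b1 was lowest without ASK1f/f replicate 5 (0.473) and highest without ASK1f/f replicate 2 (0.811). The relation of Hspa5 to Hsp90b1 passed the adjusted threshold by r only without ASK1f/f replicate 2, and not by rho. Its relation to Atf4, near 0, was 0.118 on deviations from the genotype means, 0.339 without the 2 livers farthest from the median of Hspa5, and -0.169 to 0.279 over the livers left out. In a fit with a replicate block, 0 genes were called, 880 genes were at an unadjusted p under 0.05 and the members' median stayed at -0.098. Same-numbered livers deviated together with a mean correlation of 0.107 (0.0212 to 0.174), against -0.0275 for other pairs, and 4 of 5 ASK1f/f and 2 of 5 ASK1+hep livers correlated best with their own number. In 4 of the 5 same-numbered pairs the labels carry consecutive animal numbers. Both replicate 1 labels begin with SN and all other labels with CC, but no label names litters or cages. Not every pair passed 0.1, but that limit was not set in the plan and cannot decide whether the mice were paired. The comparison reported did not take the numbers to pair the mice. Whether the mice were paired was not tested further, and the block brought no member past the adjusted threshold. Reads per member and liver ran from 38 to 24598, so counting error bears most on the lowest genes, Derl3, Eif2ak3 and Wfs1.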
